A study of Mus musculus with 8 samples.

Results

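Nrp1, Sema4a, Sema4b, Sema4d, Sema7a, Plxnb2, Plxnd1 and Plxnc1 are 8 genes of the neuropilin, semaphorin and plexin families, taken from the count table by name. They are 8 of the 27594 genes in the count table, and all 8 were among the 14540 genes that passed the filter on low counts. The RNA-seq libraries came from regulatory T (Treg) cells of C57BL/6 mice 6 to 8 weeks old, sorted from spleen and peripheral lymph nodes. Control mice (WT) carried Foxp3-YFP-Cre, a knock-in that drives Cre and a yellow fluorescent protein in Foxp3-expressing cells, and Foxp1-deficient mice (Foxp1 cKO) were Foxp1fl/fl Foxp3-YFP-Cre, so that every group carried the Cre allele. From each genotype, resting Treg (rTreg) cells were sorted as CD4+YFP+ cells low for CD44, and activated Treg (aTreg) cells as CD4+YFP+ cells high for CD44. Each of the 4 groups had 2 libraries, numbered replicate 1 and replicate 2. The sources used here do not say whether a library came from 1 mouse or from several, so the p-values measure only the spread between these libraries.

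Semaphorins are secreted or membrane-bound ligands, first known from the guidance of growing axons, and plexins are their signaling receptors. Neuropilins have a short cytoplasmic tail and act as co-receptors, for secreted semaphorins together with plexins and for vascular endothelial growth factors together with their receptors. In the immune system Nrp1 is used as a surface marker of many Treg cells and can bind Sema4a, a ligand found on dendritic cells and T cells, while Sema4d (CD100) is abundant on T cells and binds plexins of the B class and CD72 on B cells.

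The library totals lay between 6373170 and 15268623 counts. Foxp1, the targeted gene, stood at 353 and 384 CPM (counts scaled to the library total and by the TMM factor of edgeR) in the WT rTreg libraries and at 342 and 338 in those labelled Foxp1 cKO rTreg, with a log2 fold change of -0.12 that did not pass the test (adjusted p = 0.460). Adjusted p-values are from the quasi-likelihood test of edgeR after Benjamini-Hochberg correction over all genes tested, unless another tool is named. In aTreg cells Foxp1 was at 234 and 230 CPM in WT and at 126 and 102 in Foxp1 cKO, and it was lower in the latter with a log2 fold change of -1.03 (adjusted p = 0.00194, edgeR). These counts are summed over the whole gene and counts per exon were not used here, so they do not check the genotype of the rTreg libraries labelled Foxp1 cKO. For Treg cells of such mice, not split by subset, the paper reports a complete loss of Foxp1 by immunoblot, mRNA level and intracellular staining. Replicate 1 and replicate 2 differed in sex by Xist (0 to 3 counts in each replicate 1 library, 15098 to 21822 in each replicate 2 library), the same way in every group, and the replicate number was kept in the fit as a block. Of 7 Treg cell markers, Foxp3 included, none was at 0 in any group, and their summed level was 2830 to 2916 CPM in rTreg and 3575 to 4389 CPM in aTreg libraries.

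The positions of the genes are those of the GENCODE M21 annotation of GRCm38, the build that mm10 stands for. Nrp1 (ENSMUSG00000025810) lies on chromosome 8 from 128358604 to 128503363 on the plus strand. Sema4a (ENSMUSG00000028064) lies on chromosome 3 from 88435959 to 88461182 on the minus strand, and Sema4b (ENSMUSG00000030539) on chromosome 7 from 80186841 to 80226527 on the plus strand. Sema4d (ENSMUSG00000021451) lies on chromosome 13 from 51685529 to 51793747 on the minus strand, and Sema7a (ENSMUSG00000038264) on chromosome 9 from 57940112 to 57962865 on the plus strand. The plexin genes are all on minus strands: Plxnb2 (ENSMUSG00000036606) on chromosome 15 from 89155549 to 89180788, Plxnd1 (ENSMUSG00000030123) on chromosome 6 from 115954811 to 115995005, and Plxnc1 (ENSMUSG00000074785) on chromosome 10 from 94790866 to 94944835. Counts were summed over the exons of a gene, and no annotated protein-coding gene overlaps any of the 8.

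The 4 genes called between genotypes (Sema7a and Plxnd1 in rTreg cells, Nrp1 and Plxnb2 in aTreg cells) are shown here by the 250 bases before their RefSeq transcription start (GRCm38.p6, gene strand, 5′ to 3′), for Plxnb2 the outermost of 2 annotated starts. Capitals mark GGGCGG or its reverse complement CCGCCC, the core of the GC box bound by Sp1-type factors. The windows are chr8:128358823-128359072 for Nrp1, chr9:57939862-57940111 for Sema7a, chr15:89180789-89181038 for Plxnb2 and chr6:115995006-115995255 for Plxnd1.
Nrp1: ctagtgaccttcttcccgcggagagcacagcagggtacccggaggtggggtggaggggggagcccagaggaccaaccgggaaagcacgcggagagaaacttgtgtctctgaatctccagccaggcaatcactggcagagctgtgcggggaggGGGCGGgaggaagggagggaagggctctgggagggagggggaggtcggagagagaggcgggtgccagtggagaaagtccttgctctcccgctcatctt
Sema7a: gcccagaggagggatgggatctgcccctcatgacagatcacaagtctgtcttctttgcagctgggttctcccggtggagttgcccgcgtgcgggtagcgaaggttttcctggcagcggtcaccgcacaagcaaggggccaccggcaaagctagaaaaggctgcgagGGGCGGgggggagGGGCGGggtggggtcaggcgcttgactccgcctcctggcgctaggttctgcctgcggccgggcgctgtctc
Plxnb2: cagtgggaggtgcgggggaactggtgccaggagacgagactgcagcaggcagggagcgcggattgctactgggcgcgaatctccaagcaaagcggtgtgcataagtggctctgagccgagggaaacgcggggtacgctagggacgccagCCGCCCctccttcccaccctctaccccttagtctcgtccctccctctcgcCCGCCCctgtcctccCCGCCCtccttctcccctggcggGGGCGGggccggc
Plxnd1: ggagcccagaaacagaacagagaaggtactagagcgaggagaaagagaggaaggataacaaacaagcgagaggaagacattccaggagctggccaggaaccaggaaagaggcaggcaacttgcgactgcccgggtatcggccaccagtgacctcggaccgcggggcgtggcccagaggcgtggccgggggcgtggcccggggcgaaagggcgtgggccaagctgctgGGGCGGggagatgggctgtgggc
All 8 genes matched the RefSeq promoter table, with 15 windows of 300 bases (250 before to 50 after a start) between them. GGGCGG or CCGCCC was in 12 of the 15 windows, at least 1 for each gene, and in 35.7% of all 32851 windows. The forkhead core TGTTTAC or its reverse complement GTAAACA was in 0 of the 15 and in 3.65% of all windows, and TATAAA or TTTATA was in 0 of the 15 and in 13.6% of all. As the forkhead core and TATAAA were absent from the windows of these 8 genes, no base there could lie in more than 1 of the 3 motifs. These are letter matches in these windows only. The windows printed held 14 (Nrp1), 23 (Sema7a), 27 (Plxnb2) and 23 (Plxnd1) CpG dinucleotides in their 300 bases, beside a median of 7 over all windows, and the 15 windows of the 8 genes held from 2 (Sema4d) to 30 (Plxnc1).

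Levels of different genes were compared per length, by the deposited FPKM. Sema4d was the most abundant of the 8, at a mean of 97.5 FPKM over the 8 libraries, followed by Nrp1 at 30.9, Sema4b at 21.6 and Sema4a at 19.7. Plxnd1 (7.43), Plxnc1 (6.94), Sema7a (2.37) and Plxnb2 (0.816) were lower. The order of these group means differed by subset: Sema4a (25.8 in WT and 41.6 in Foxp1 cKO) stood above Sema4b (21.2 and 17.96) and Nrp1 (13.3 and 16.8) in rTreg cells, whereas in aTreg cells Nrp1 (36.7 and 56.7) stood above Sema4b (25.1 and 22.1), and Sema4a (6.87 and 4.66) stood below Plxnd1 (11.01 and 10.98) and Plxnc1 (9.94 and 9.14). Sema4d made up 59.9% to 71.9% of the summed FPKM of the 19 semaphorin genes in the table, in every library the largest share, and Nrp1 made up at least 96.4% of the 2 neuropilins. Among 9 plexin genes, Plxnc1 held 26.7% to 43.8% of the summed FPKM, Plxnd1 20.7% to 37.1% and Plxnb2 1.01% to 7.23%. The lengths behind the FPKM of Sema4d and Plxnb2 were 84.0% and 92.2% of their merged M21 exons and equal to them for the other 6 genes.

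**Figure D1:**
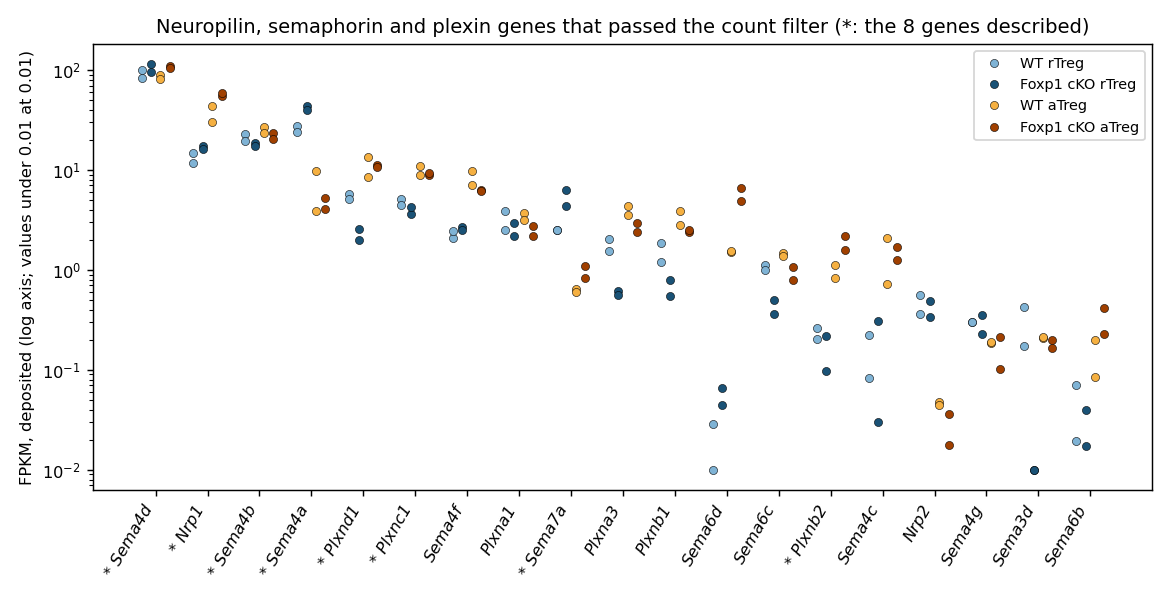
Deposited FPKM (log axis) of the 19 neuropilin, semaphorin and plexin genes that passed the count filter, ordered by their mean over the 8 libraries. Each point is 1 library, colored by group, and a star marks the 8 genes described. Sema4d lies highest, at a mean of 97.5 FPKM, and Plxnb2 lowest of the 8, at 0.816.

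Across the 4 groups, Nrp1 and Plxnb2 were highest in Foxp1 cKO aTreg cells and Sema4a and Sema7a in Foxp1 cKO rTreg cells. Plxnb2 had the widest range of group means, 11.6-fold from lowest to highest, followed by Sema4a (9.24-fold) and Sema7a (9.02-fold). Sema4b and Sema4d had the narrowest, at 1.33-fold and 1.29-fold. The order of the groups for Nrp1 was Foxp1 cKO aTreg, WT aTreg, Foxp1 cKO rTreg and WT rTreg, from high to low, and for Sema7a it was Foxp1 cKO rTreg, WT rTreg, Foxp1 cKO aTreg and WT aTreg. In both genes no neighboring groups in that order overlapped, whereas neighbors did overlap for the other 6 genes: WT aTreg with Foxp1 cKO aTreg for Sema4a, Plxnd1 and Plxnc1, WT rTreg with Foxp1 cKO rTreg for Plxnb2, WT rTreg with Foxp1 cKO aTreg for Sema4b, and both Foxp1 cKO groups as well as both WT groups for Sema4d. The share of all genes tested without such overlap was not counted, so this does not set Nrp1 and Sema7a apart from other genes.

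**Figure D2:**
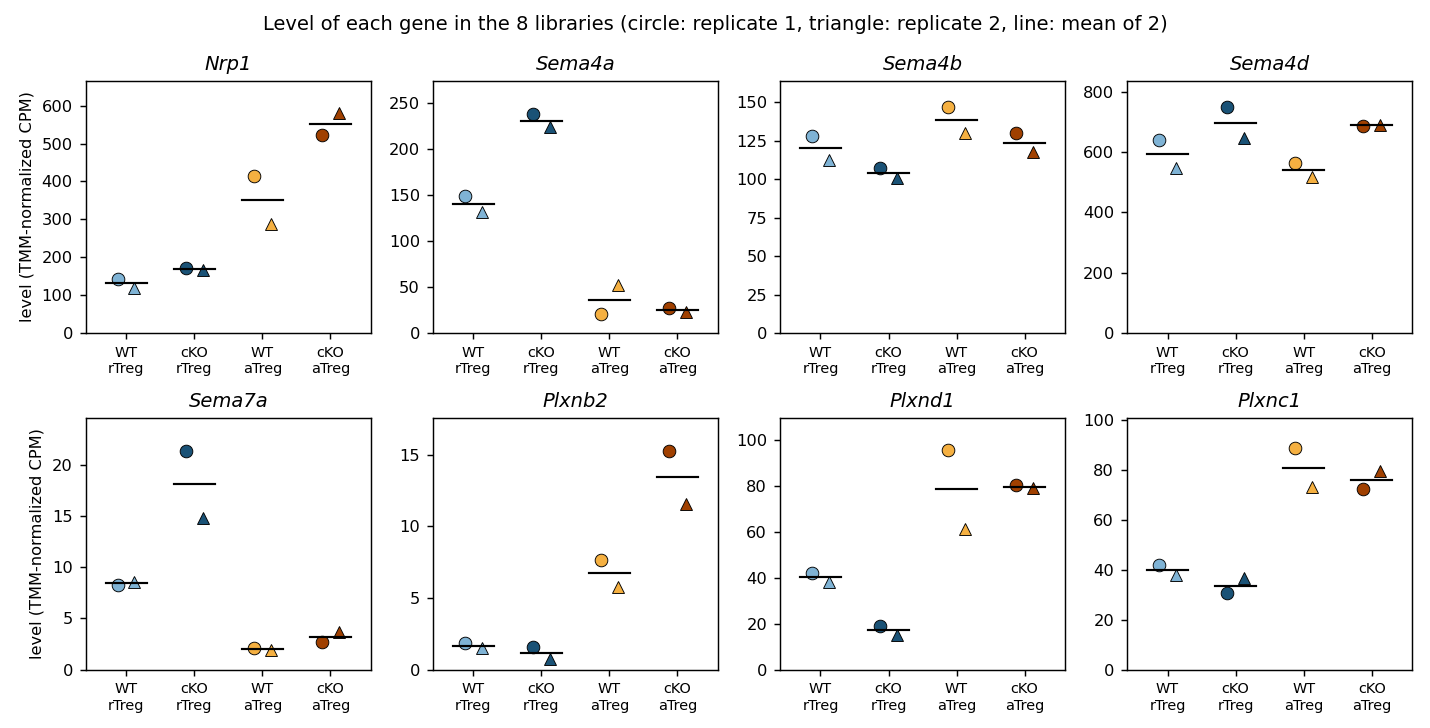
Level of each of the 8 genes (TMM-normalized CPM, linear axes from 0) in the 4 groups, cKO standing for Foxp1 cKO. Circles are replicate 1, triangles replicate 2 and lines the mean of 2 libraries. The aTreg libraries sit above the rTreg libraries for Nrp1, Plxnb2, Plxnd1 and Plxnc1, and below them for Sema4a and Sema7a.

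Resting and activated cells were compared within WT first. Of the 8 genes, Nrp1, Plxnb2 and Plxnc1 were higher in WT aTreg cells, and Sema4a and Sema7a were lower, at an adjusted p under 0.05 and at least 2-fold. The 3 higher genes stand beside 9.50% of all 14540 genes called higher, and the 2 lower genes beside 2.83% called lower. The median log2 fold change was 0.57 over the 8 genes and -0.0046 over all genes tested.

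Nrp1, the co-receptor, was at 144 and 118 CPM in the WT rTreg libraries and at 413 and 287 in the WT aTreg libraries. Both aTreg libraries were above both rTreg libraries, and the log2 fold change was 1.41 (SE 0.14, adjusted p = 0.00030, edgeR). Plxnb2, a receptor for class 4 semaphorins, was at 1.84 and 1.49 CPM in WT rTreg (20 and 19 counts) and at 7.68 and 5.77 CPM in WT aTreg cells (70 and 90 counts). It was low in all 4 libraries yet without overlap between the subsets, with a log2 fold change of 2.00 (SE 0.24, adjusted p = 0.00062, edgeR). Plxnc1, the plexin that binds Sema7a, was at 42.0 and 38.1 CPM in WT rTreg and at 88.9 and 73.0 in WT aTreg cells. Its log2 fold change of 1.01 (SE 0.12, adjusted p = 0.00070, edgeR) lay just past the 2-fold threshold. It lay just under that threshold with limma-voom, at 0.996, without WT rTreg replicate 2, at 0.94, and without WT aTreg replicate 1, at 0.83, with adjusted p-values of 0.00085, 0.0095 and 0.0035.

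Sema4a was at 149 and 132 CPM in WT rTreg and at 20.6 and 52.0 in WT aTreg cells. All aTreg values were below all rTreg values, although the 2 aTreg libraries themselves differed by a larger ratio than those of any other group, and the log2 fold change was -1.94 (SE 0.33, adjusted p = 0.0032, edgeR). In bulk libraries, fewer cells that express a gene and less RNA of it per cell cannot be told apart. Sema7a, a membrane-anchored semaphorin that also binds integrins with the beta 1 chain, was at 8.29 and 8.56 CPM in WT rTreg and at 2.08 and 1.92 in WT aTreg cells. The replicates lay close together and the subsets far apart, with a log2 fold change of -2.07 (SE 0.27, adjusted p = 0.0010, edgeR).

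The other 3 genes were not called in this comparison. Plxnd1, a receptor for Sema3e and Sema4a, was at 42.0 and 38.3 CPM in WT rTreg and at 95.6 and 61.2 in WT aTreg cells. Its groups did not overlap and its adjusted p was 0.0018 (edgeR), but its log2 fold change of 0.94 (SE 0.14) was under 2-fold. It passed 2-fold without WT rTreg replicate 2, at 1.04 (adjusted p = 0.0095, edgeR), and without WT aTreg replicate 2, at 1.19 (adjusted p = 0.00029, edgeR). Sema4b was at 128 and 113 CPM in WT rTreg and at 147 and 130 in WT aTreg cells, a log2 fold change of 0.20 with an interval of 0.06 to 0.34 (adjusted p = 0.038, edgeR, and 0.266 without the replicate block), far under 2-fold. Sema4d was at 639 and 546 CPM in WT rTreg and at 565 and 518 in WT aTreg cells, with overlapping groups and a log2 fold change of -0.13 whose 95% interval was -0.28 to 0.02 (adjusted p = 0.175, edgeR).

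In Foxp1 cKO cells the same comparison called 6 of the 8 genes: Nrp1, Plxnb2, Plxnd1 and Plxnc1 were higher in aTreg cells, and Sema4a and Sema7a were lower. Of all genes tested, 11.3% were called higher and 4.39% lower. The median log2 fold change was 0.70 over the 8 genes and -0.018 over all. The comparisons within WT and within Foxp1 cKO share no library. Markers of other cell types also differed between the subsets. The 4 dendritic cell markers summed to 0.553 to 1.73 CPM over the 4 rTreg libraries. Over the 4 aTreg libraries of both genotypes the sum was 5.0 to 10.4 CPM. None of the 4 was at 0 in both libraries of any group. Most of this rise lay in Zbtb46 and Xcr1. From rTreg to aTreg, mean CPM of Zbtb46 went from 0.787 to 3.62 (WT) and from 0.847 to 5.71 (Foxp1 cKO). Xcr1 went from 0.0393 to 1.04 (WT) and from 0.0361 to 2.19 (Foxp1 cKO). Flt3 stayed nearly level, at 0.118 to 0.142 (WT) and 0.195 to 0.198 (Foxp1 cKO). Itgax had a mean of at most 0.641 CPM in any group. The part of other cell types in the subset differences was not tested.

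Nrp1 was at 171 and 166 CPM in Foxp1 cKO rTreg and at 522 and 581 in Foxp1 cKO aTreg cells. Its log2 fold change of 1.71 (SE 0.14, adjusted p = 8.3e-05, edgeR) stood beside 1.41 in WT. Plxnb2 was at 1.59 and 0.722 CPM in Foxp1 cKO rTreg cells, 10 counts in each library, and at 15.3 and 11.6 CPM in Foxp1 cKO aTreg cells, 182 and 161 counts. Its log2 fold change of 3.64 (SE 0.25, adjusted p = 3.5e-05, edgeR) was the largest of the 8 genes in any comparison. Plxnd1 was at 19.0 and 15.2 CPM in Foxp1 cKO rTreg and at 80.3 and 78.9 in Foxp1 cKO aTreg cells. The aTreg libraries were close to those of WT aTreg while the rTreg libraries were the lowest of all 8, and the log2 fold change was 2.24 (SE 0.15, adjusted p = 3.3e-05, edgeR).

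Plxnc1 was at 30.8 and 36.7 CPM in Foxp1 cKO rTreg and at 72.3 and 79.5 in Foxp1 cKO aTreg cells, a log2 fold change of 1.15 (SE 0.13, adjusted p = 0.00031, edgeR). Sema4a was at 238 and 223 CPM in Foxp1 cKO rTreg and at 27.4 and 22.5 in Foxp1 cKO aTreg cells. The rTreg values were the highest of the 8 libraries, and the log2 fold change was -3.21 (SE 0.34, adjusted p = 0.00024, edgeR). Sema7a was at 21.4 and 14.8 CPM in Foxp1 cKO rTreg and at 2.68 and 3.67 in Foxp1 cKO aTreg cells, a log2 fold change of -2.47 (SE 0.24, adjusted p = 0.00018, edgeR). Sema4b (log2 fold change 0.25, interval 0.11 to 0.39, adjusted p = 0.013, edgeR) stayed under 2-fold, and Sema4d (-0.01, interval -0.16 to 0.14) had overlapping groups.

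**Figure D3:**
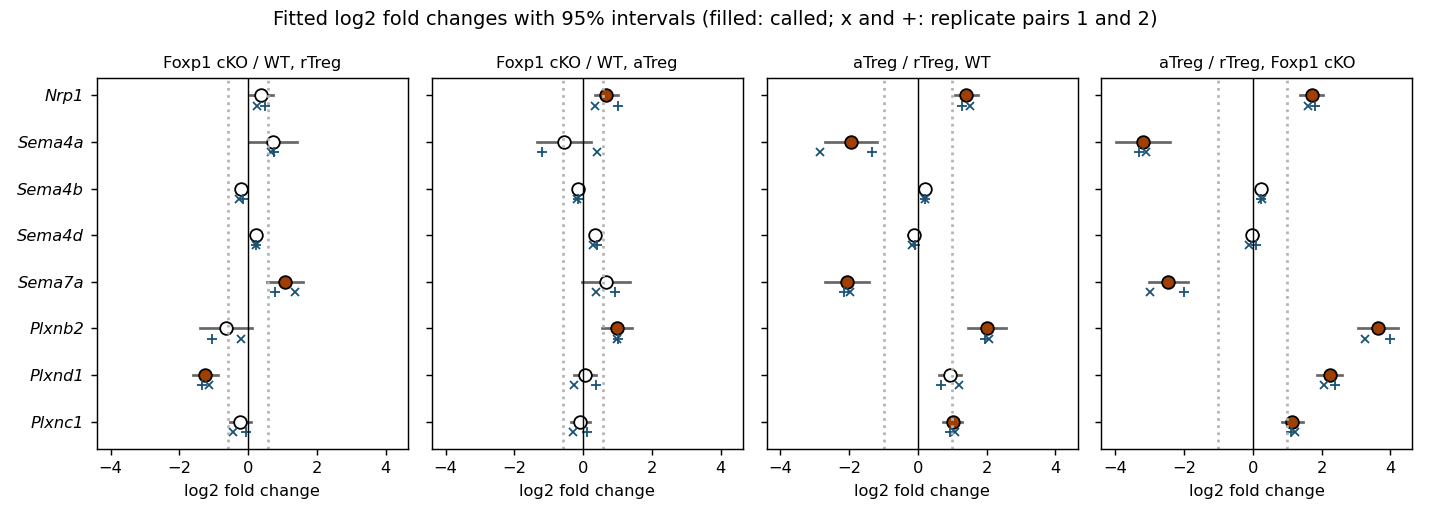
Fitted log2 fold changes (circles) with 95% intervals (lines) of the 8 genes in 4 comparisons. Filled circles were called, crosses and plus signs below them are the differences within replicate 1 and replicate 2, and dotted lines mark 1.5-fold (left 2 panels) or 2-fold (right 2 panels). The subset differences of Nrp1, Plxnb2, Sema4a and Sema7a are filled in both genotypes, and the genotype differences of Sema7a and Plxnd1 in rTreg and of Nrp1 and Plxnb2 in aTreg cells.

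The comparison of genotypes within rTreg cells asks what the loss of Foxp1 changes in resting cells. Among the libraries labelled Foxp1 cKO rTreg, Sema7a was higher than in WT and Plxnd1 was lower, at an adjusted p under 0.05 and at least 1.5-fold. The 1 higher gene of 8 stands beside 2.90% of all genes called higher, and the 1 lower gene beside 2.70% called lower. The median log2 fold change was 0.013 over the 8 genes and 0.0029 over all genes tested.

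Plxnd1 was at 42.0 and 38.3 CPM in WT rTreg and at 19.0 and 15.2 CPM in Foxp1 cKO rTreg cells. Both Foxp1 cKO libraries were below both WT libraries, by 1.15 on the log2 scale in replicate 1 and by 1.33 in replicate 2, and the log2 fold change was -1.25 (SE 0.16, adjusted p = 0.0040, edgeR). Of all genes tested, 1.59% had a smaller p. It remained called without the replicate block (adjusted p = 0.042, edgeR), and leaving out Foxp1 cKO rTreg replicate 2 raised the adjusted p to 0.074 at a log2 fold change of -1.22.

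Sema7a was at 8.29 and 8.56 CPM in WT rTreg (90 and 109 counts) and at 21.4 and 14.8 CPM in Foxp1 cKO rTreg cells (134 and 205 counts). Both Foxp1 cKO libraries were above both WT libraries, with a log2 difference of 1.37 in replicate 1 and 0.79 in replicate 2. The fitted log2 fold change was 1.07 (SE 0.22, adjusted p = 0.022, edgeR). The adjusted p was 0.078 without the replicate block, and without WT rTreg replicate 1, WT rTreg replicate 2, Foxp1 cKO rTreg replicate 1 or Foxp1 cKO rTreg replicate 2 it was 0.148, 0.121, 0.149 and 0.054, so that the call needed all 4 rTreg libraries.

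Sema4a had a larger difference than 1.5-fold in rTreg cells without passing the test. Its values were 149 and 132 CPM in WT and 238 and 223 CPM in Foxp1 cKO libraries, without overlap, and the log2 fold change of 0.71 (SE 0.30) had an adjusted p of 0.169 (edgeR). Fitted on the 4 rTreg libraries alone, the log2 fold change was 0.72 with an adjusted p of 0.00080 (edgeR), with no filter on low counts it was 0.69 with 0.0050, and without WT aTreg replicate 1 or WT aTreg replicate 2 the adjusted p was 0.0013 and 0.0014. All these 4 fits call the gene, whereas the other 13 of 17 alternatives do not. Without the replicate block the adjusted p was 0.360 (edgeR), and leaving out 1 library gave log2 fold changes of 0.48 to 0.94. The spread that the main fit shared over the 4 groups includes the WT aTreg pair of 20.6 and 52.0 CPM, and the part of that pair in the result was not tested.

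The other 5 genes did not pass in rTreg cells. Nrp1 was at 144 and 118 CPM in WT and at 171 and 166 CPM in Foxp1 cKO libraries, without overlap (log2 fold change 0.38, 95% interval 0.05 to 0.71, adjusted p = 0.131, edgeR). Sema4d was at 639 and 546 against 748 and 646 CPM (log2 fold change 0.23, interval 0.08 to 0.39), and Sema4b at 128 and 113 against 107 and 101 CPM (log2 fold change -0.21, interval -0.35 to -0.07), with adjusted p-values of 0.057 and 0.064 by edgeR. Plxnc1 (42.0 and 38.1 against 30.8 and 36.7 CPM) had a log2 fold change of -0.23 and an adjusted p of 0.306 by edgeR. Plxnb2 was at 1.84 and 1.49 against 1.59 and 0.722 CPM (20 and 19 against 10 and 10 counts), with overlapping groups. The log2 difference was -0.21 in replicate 1 and -1.05 in replicate 2. Its fitted log2 fold change was -0.65 (adjusted p = 0.244, edgeR), with a 95% interval of -1.40 to 0.11, which includes both no difference and a decrease of more than 2-fold.

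Summed over the 9 plexin genes, the FPKM was 19.0 and 15.0 in WT rTreg and 10.8 and 9.65 in Foxp1 cKO rTreg libraries, and 37.5 and 27.8 in WT aTreg and 30.5 and 28.8 in Foxp1 cKO aTreg libraries. The sums did not overlap between genotypes in rTreg cells and did not differ by more than the spread of the WT pair in aTreg cells. Summed over the 19 semaphorin genes, the FPKM was 157 and 133 in WT rTreg, 187 and 161 in Foxp1 cKO rTreg, 134 and 130 in WT aTreg, and 154 and 146 in Foxp1 cKO aTreg libraries, without overlap between the genotypes in either subset. Sema4d made up 59.9% to 71.9% of the semaphorin sum in each library, so that sum does not describe the class evenly. No test was made of these sums, and how often sums of other genes are without overlap was not counted.

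The comparison of genotypes within aTreg cells asks the same of activated cells. Nrp1 and Plxnb2 were higher in Foxp1 cKO aTreg cells and no gene of the 8 was called lower. Of all genes tested, 2.37% were called higher and 1.66% lower. By edgeR 1 gene, Sema4b, was lower at an unadjusted p under 0.05, and limma-voom and DESeq2 called 0 of the 8 genes lower. The median log2 fold change was 0.20 over the 8 genes and 0.0018 over all genes tested. The summed level of the activated-subset markers Cd44, Klrg1, Icos and Prdm1 was 646 and 615 CPM in WT aTreg and 755 and 848 CPM in Foxp1 cKO aTreg libraries. The markers did not all go the same way. From WT to Foxp1 cKO aTreg cells, the mean CPM rose for Klrg1 (35.9 to 80.5), Icos (329 to 455) and Prdm1 (51.6 to 81.2). That of Cd44 fell from 213 to 185. No marker of the list was at 0, Cd44 encodes a protein used for the sort, and the part of the subset makeup in the genotype differences was not tested.

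Nrp1 was at 413 and 287 CPM in WT aTreg and at 522 and 581 in Foxp1 cKO aTreg cells. Both Foxp1 cKO libraries were above both WT libraries, with a log2 difference of 0.34 in replicate 1 and 1.02 in replicate 2. The fitted log2 fold change was 0.68 (SE 0.14, adjusted p = 0.032, edgeR). Without the replicate block the adjusted p was 0.191. Without WT aTreg replicate 2 the log2 fold change was 0.44 (adjusted p = 0.161, edgeR), without Foxp1 cKO aTreg replicate 2 it was 0.45 (adjusted p = 0.231, edgeR), and without Foxp1 cKO rTreg replicate 1 or replicate 2, which are not in the comparison but share the fit, the adjusted p was 0.060 and 0.063.

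Plxnb2 was at 7.68 and 5.77 CPM in WT aTreg (70 and 90 counts) and at 15.3 and 11.6 CPM in Foxp1 cKO aTreg cells (182 and 161 counts). The 2 genotypes did not overlap and the log2 difference was 0.99 in replicate 1 and 1.00 in replicate 2. The fitted log2 fold change was 0.99 (SE 0.19, adjusted p = 0.024, edgeR). The adjusted p was 0.260 without the replicate block and 0.067 by DESeq2. Leaving out 1 of the 4 aTreg libraries gave adjusted p-values of 0.092 (WT replicate 1), 0.132 (WT replicate 2), 0.093 (Foxp1 cKO replicate 1) and 0.199 (Foxp1 cKO replicate 2), with log2 fold changes from 0.94 to 1.046.

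Markers of myeloid and plasma cells were low throughout and differed between libraries. The 4 neutrophil markers summed to 2.63 and 1.92 CPM in WT aTreg and to 24.7 and 2.59 CPM in Foxp1 cKO aTreg libraries, and to 0.368 and 0 CPM in WT rTreg and 11.6 and 5.13 CPM in Foxp1 cKO rTreg libraries. Mpo and Elane were at 0 in both WT rTreg libraries. The 5 macrophage or monocyte markers summed to 2.85 and 2.56 CPM in WT aTreg, 6.71 and 2.30 CPM in Foxp1 cKO aTreg, 1.75 and 0.786 CPM in WT rTreg and 6.69 and 1.73 CPM in Foxp1 cKO rTreg libraries, and none of the 5 was at 0 in both libraries of a group. The plasma cell markers Sdc1 and Jchain summed to 2.03 and 0.393 CPM in WT rTreg, 7.49 and 4.77 CPM in Foxp1 cKO rTreg, 3.07 and 2.56 CPM in WT aTreg, and 11.6 and 3.23 CPM in Foxp1 cKO aTreg libraries, and neither was at 0 in both libraries of a group. The dendritic cell markers summed to 5.49 and 5.0 CPM in WT aTreg and 7.13 and 10.4 CPM in Foxp1 cKO aTreg libraries, and to 0.553 and 1.73 CPM in WT rTreg and 1.59 and 1.16 CPM in Foxp1 cKO rTreg libraries. The part of such cells in the differences of the 8 genes was not tested.

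Sema4d passed the test in aTreg cells but not 1.5-fold. It was at 565 and 518 CPM in WT and at 688 and 690 CPM in Foxp1 cKO libraries, without overlap, with a log2 fold change of 0.35 (SE 0.07, adjusted p = 0.022, edgeR, and 0.263 without the replicate block). Sema7a, at 2.08 and 1.92 against 2.68 and 3.67 CPM, had a log2 fold change of 0.68 with an interval of -0.02 to 1.38 and an adjusted p of 0.226 (edgeR). Sema4b was at 147 and 130 against 130 and 118 CPM (log2 fold change -0.16, interval -0.30 to -0.02, adjusted p = 0.158, edgeR).

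Sema4a, Plxnd1 and Plxnc1 had overlapping genotypes in aTreg cells. Sema4a was at 20.6 and 52.0 CPM in WT and at 27.4 and 22.5 CPM in Foxp1 cKO libraries, so that replicate 1 was higher and replicate 2 lower in Foxp1 cKO, and the log2 fold change of -0.56 (SE 0.34, adjusted p = 0.382, edgeR) rested on 1 library. Without WT aTreg replicate 1 it was -1.15 (adjusted p = 0.0017, edgeR), and without WT aTreg replicate 2 it was 0.36 (adjusted p = 0.193, edgeR). Plxnd1 had a log2 fold change of 0.06 with an interval of -0.25 to 0.37, and Plxnc1 of -0.09 with an interval of -0.36 to 0.19.

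The genotype differences were set against each other in the same fit, as the difference of the log2 fold change in aTreg minus that in rTreg cells. By edgeR none of the 8 genes passed an adjusted p under 0.05, a test that 0.186% of all genes passed with a positive and 0.144% with a negative difference. At an unadjusted p under 0.05 there were 2 with a positive difference, Plxnb2 and Plxnd1, and 1 with a negative one, Sema4a. DESeq2 called 1 gene, Plxnd1, and limma-voom called 0.

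Plxnd1 was lower in Foxp1 cKO rTreg cells in both replicates and, in aTreg cells, lower in replicate 1 and higher in replicate 2. The difference was 1.30 (SE 0.21, 95% interval 0.82 to 1.78), with an adjusted p of 0.053 by edgeR and of 0.00021 by DESeq2. It was 0.079 by limma-voom, 0.424 without the replicate block, and 0.0066 without WT aTreg replicate 1, at a difference of 1.58. Plxnb2 was lower in Foxp1 cKO rTreg and higher in Foxp1 cKO aTreg cells in both replicates, with a difference of 1.64 (SE 0.38, 95% interval 0.77 to 2.51, adjusted p = 0.115, edgeR), and its lower rTreg values rest on 10 counts per library. In rTreg cells alone Plxnb2 did not pass (adjusted p = 0.244, edgeR). Sema4a had a difference of -1.27 (SE 0.46, adjusted p = 0.296, edgeR), which was -1.87 without WT aTreg replicate 1 (adjusted p = 0.0030, edgeR) and -0.36 without WT aTreg replicate 2. With no filter on low counts, which changes the genes that share the estimate of spread, the adjusted p was under 0.05 for Plxnd1, Plxnb2 and Sema4a.

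Nrp1 (0.30, interval -0.16 to 0.76), Sema4d (0.12, interval -0.10 to 0.33), Plxnc1 (0.14, interval -0.27 to 0.55), Sema4b (0.05, interval -0.15 to 0.25) and Sema7a (-0.39, interval -1.27 to 0.49) had differences whose intervals include 0. Called between genotypes in 1 subset and not in the other, Sema7a and Nrp1 were therefore not shown to differ between the subsets in their response.

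**Figure D4:**
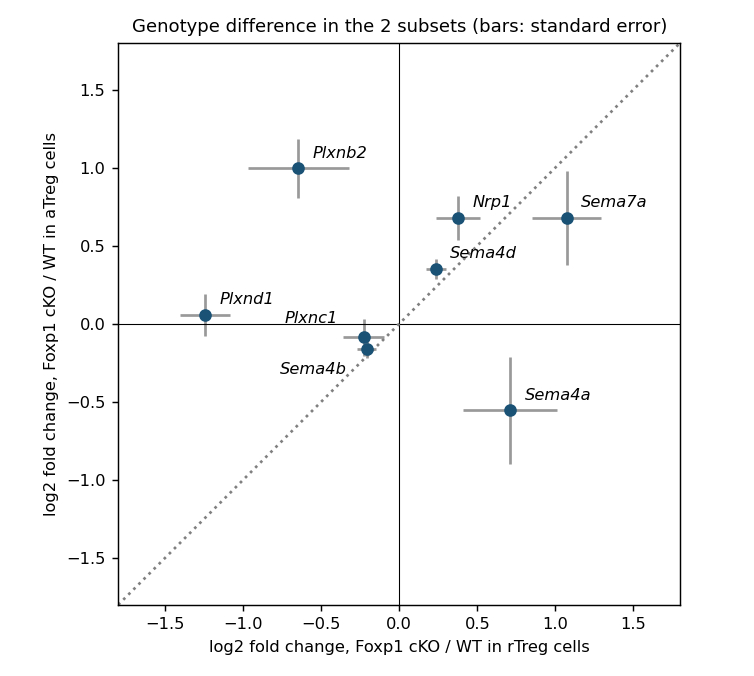
Log2 fold change of Foxp1 cKO against WT in rTreg cells (horizontal) and in aTreg cells (vertical) for the 8 genes, with standard errors as bars and the dotted line where both are equal. The 2 comparisons share no library. Plxnb2 (-0.65 and 0.99) and Sema4a (0.71 and -0.56) have opposite signs, and Plxnd1 (-1.25 and 0.06) lies near the horizontal zero line.

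The rest of the family was read from a list of 23 further genes, of which 22 were in the table and 11 passed the count filter. The 11 that did not pass had at most 7 counts in any library, and Sema3e was not analysed here. In rTreg cells, 4 of the 11 were lower in Foxp1 cKO (2.70% of all genes) and none was called higher (2.90% of all genes), with 1 at an unadjusted p under 0.05 by edgeR, and 0 called by limma-voom and by DESeq2. Plxna3 (16.1 and 12.4 against 4.94 and 4.62 CPM) and Plxnb1 (17.9 and 11.7 against 7.81 and 5.49 CPM), receptors for class 3 semaphorins and for Sema4d, had log2 fold changes of -1.55 and -1.16, with adjusted p-values of 0.00098 and 0.016 by edgeR. Sema6c, a membrane-bound semaphorin, had a log2 fold change of -1.29 (adjusted p = 0.011, edgeR), and Sema3d, a secreted one, was at 16 and 48 counts in WT and at 0 and 1 in Foxp1 cKO libraries (adjusted p = 0.0076, edgeR). Without the replicate block the adjusted p-values of Plxnb1 and Sema6c were 0.097 and 0.055, and those of Plxna3 and Sema3d stayed under 0.05 (edgeR). Over 17 alternatives the call of Plxna3 was always kept and that of Plxnb1 was lost in 6. The call of Sema3d was lost in 2 of 15, without WT rTreg replicate 2 or Foxp1 cKO rTreg replicate 2, and that of Sema6c in 3 of 15. With Plxnd1, 3 of the 6 plexin genes tested were called lower in Foxp1 cKO rTreg cells, beside 2.70% of all genes.

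In aTreg cells, Sema6d was the 1 gene of these 11 that was called between genotypes (2.37% of all genes were called higher and 1.66% lower), at 15.4 and 15.9 CPM in WT and 50.7 and 71.3 CPM in Foxp1 cKO libraries (log2 fold change 1.96, SE 0.14, adjusted p = 0.00085, edgeR). None was called lower, with 4 lower at an unadjusted p under 0.05 by edgeR and 0 called by limma-voom and by DESeq2. Sema6d, a membrane-bound semaphorin, was near the floor in rTreg cells, at 1 and 4 counts in WT and 3 and 10 counts in Foxp1 cKO libraries. Between subsets of WT cells, 5 of the 11 were higher in aTreg cells (Sema6d, Sema4c, Sema4f, Plxna3 and Plxnb1) and 1 was lower, Nrp2, at 6.54 and 4.40 CPM in rTreg and 0.549 and 0.513 CPM in aTreg libraries (log2 fold change -3.28, adjusted p = 0.00020, edgeR). Of all genes, 9.50% were called higher and 2.83% lower. The 2 neuropilins moved in opposite directions, Nrp1 higher and Nrp2 lower in aTreg cells. In Foxp1 cKO cells the same 5 genes were higher together with Sema3d, Sema6b and Sema6c, and Nrp2 was lower again, at 5.90 and 4.19 CPM in rTreg and 0.419 and 0.216 CPM in aTreg libraries, beside 11.3% of all genes called higher and 4.39% lower. Sema6b was at 0.0722 to 0.159 CPM in Foxp1 cKO rTreg libraries, and its call was lost with DESeq2. It was also lost without either Foxp1 cKO rTreg library or Foxp1 cKO aTreg replicate 1. The calls of Sema3d and Sema6c were lost without Foxp1 cKO rTreg replicate 2, and that of Sema6c also without Foxp1 cKO aTreg replicate 1. The difference of the genotype effects called 0 of the 11 genes by edgeR and by limma-voom and 1 by DESeq2, with 5 at an unadjusted p under 0.05 by edgeR (4 positive and 1 negative).

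Among 19 genes for further ligands, co-receptors and proteases, 12 passed the count filter. Between genotypes in rTreg cells 1 of the 12 was lower (2.70% of all genes), L1cam, an adhesion molecule that partners with Nrp1 (68.2 and 71.8 against 37.3 and 33.9 CPM, log2 fold change -1.005, adjusted p = 0.034, edgeR), and the adjusted p was 0.194 without the replicate block. In aTreg cells 1 was higher (2.37% of all genes) and 1 lower (1.66%): Itgb1, the integrin beta 1 chain bound by Sema7a, was higher (589 and 502 against 883 and 1189 CPM, log2 fold change 0.91, adjusted p = 0.012, edgeR), and Cd72, the Sema4d receptor of B cells, was lower (14.6 and 19.9 against 10.2 and 12.2 CPM, log2 fold change -0.62, adjusted p = 0.028, edgeR). Neither passed without the replicate block, at adjusted p-values of 0.075 and 0.221. Between subsets, 4 of the 12 were higher in WT aTreg cells (Itgb1, Itga1, Erbb2 and Mmp14), and in Foxp1 cKO aTreg cells the same 4 and Itgav were higher and Cd72 was lower, beside 9.50% of all genes higher and 2.83% lower in WT and 11.3% and 4.39% in Foxp1 cKO cells. The log2 fold change of Itgb1 between subsets was 2.85 in WT and 3.61 in Foxp1 cKO cells, and Itga1 and Erbb2 had no more than 2 counts in any rTreg library. The WT call of Erbb2 (adjusted p = 0.032, edgeR) was lost with DESeq2 (adjusted p = 0.195) and on leaving out any 1 of the 8 libraries (adjusted p from 0.052 without Foxp1 cKO rTreg replicate 2 to 0.219 without WT aTreg replicate 2, edgeR). The WT call of Itga1 was lost without WT rTreg replicate 2, and the Foxp1 cKO call of Erbb2 without Foxp1 cKO rTreg replicate 2.

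Among 36 genes that act inside the cell below plexins, 31 passed the count filter. In rTreg cells 2 were higher in Foxp1 cKO (2.90% of all genes) and 3 lower (2.70%). The higher ones were Mical2 (1.57 and 2.36 against 7.33 and 7.37 CPM, log2 fold change 1.89, adjusted p = 0.0053, edgeR), an oxidoreductase acting on actin, and Rras2 (log2 fold change 0.77, adjusted p = 0.0057, edgeR), a small GTPase. The 3 that were lower were Crmp1, a collapsin response mediator (-1.18, adjusted p = 0.013), Arhgef12, a guanine nucleotide exchange factor recruited by B-class plexins (-0.96, adjusted p = 0.0029), and Mical1 (-0.65, adjusted p = 0.0038), all by edgeR. Mical1 had an adjusted p of 0.079 without the replicate block (edgeR). Over 17 alternatives the call of Arhgef12 was always kept, and that of Crmp1 was lost in 5, limma-voom among them. In aTreg cells none of the 31 was called by edgeR or DESeq2 and 1 by limma-voom, with 12 at an unadjusted p under 0.05 by edgeR (11 higher and 1 lower). Mical1 was also the 1 gene of the 31 called for the difference of the genotype effects (0.87, adjusted p = 0.032, edgeR), and its adjusted p there was 0.424 without the replicate block. For this difference, which 0.186% of all genes passed with a positive sign, limma-voom called 1 and DESeq2 called 4 of the 31.

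Between subsets, 5 of the 31 were higher and 3 lower in WT aTreg cells, and 7 were higher and 3 lower in Foxp1 cKO aTreg cells, beside 9.50% and 2.83% of all genes in WT and 11.3% and 4.39% in Foxp1 cKO cells. Farp1, a plexin-binding exchange factor, was at 4.24 and 3.22 CPM in WT rTreg and 30.5 and 26.9 CPM in WT aTreg libraries (log2 fold change 2.95, adjusted p = 1.6e-05, edgeR), and Crmp1 had a log2 fold change of 2.83 in WT and 4.41 in Foxp1 cKO cells. Rhod was also higher and Ptk2, Pak1 and Rras2 were lower in aTreg cells of both genotypes. The median log2 fold change over the 31 genes was 0.07 in WT and 0.15 in Foxp1 cKO cells.

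For each of the 8 genes, the 2 genes with the most similar log2 CPM over the 8 libraries were picked from 8963 genes with a mean of at least 10 CPM. They were Nucb1 and Lrp10 for Nrp1, Cltb and Ddx23 for Sema4a, Prrc1 and Spata13 for Sema4b, Map2k2 and Xpa for Sema4d, Pabpn1 and Ahcyl2 for Sema7a, Agpat2 and Arl1 for Plxnb2, Eml2 and Ralgds for Plxnd1, and Sec24d and Ccdc125 for Plxnc1. Pearson's r lay between 0.967 (Xpa with Sema4d) and 0.995 (Nucb1 with Nrp1). The 8 points of each pair share their libraries and fall into an rTreg and an aTreg set of 4, so a gene that differs between the subsets by a like amount has a high r.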

How the data were processed

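RNA of sorted Treg cells was sequenced in 8 libraries (NEBNext Ultra kit, which does not mark strand). Per the labels and the methods of the study, the authors trimmed paired-end reads with trim_galore, aligned them (HISAT2 2.0.5 and mm10 in the submitters' processing notes), removed duplicates with Picard and counted reads per gene with HTSeq, which gave the deposited counts. The authors also deposited FPKM values, which equal the count divided by the library total and a gene length (largest relative spread 9.08e-07 where the FPKM was at least 1).

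Genes passing filterByExpr (minimum count 10) were fitted in edgeR 4.0.16 (R 4.3.3) with TMM, the quasi-likelihood test, the 4 groups and the replicate number as a block, on all 8 libraries together, with p-values adjusted by Benjamini-Hochberg over the 14540 genes tested. Calls required an adjusted p under 0.05, with a change of 1.5-fold or more for genotypes and 2-fold or more for subsets, and no fold threshold for the difference of genotype effects. SE and 95% intervals come from the same fit. The replicate numbers paired the libraries: the deviations from the group means correlated at 0.355 to 0.597 across genes in all 6 pairs of groups, and the study's methods describe paired samples. No 2 libraries of a group agreed within sampling noise (chi-square per degree of freedom 13.9 to 22.3). In simulated rTreg data on 14540 genes, the fit called 26.9% of genes changed 1.5-fold, 73.1% of those changed 2-fold and 93.9% of those changed 4-fold. The simulation gave every gene the same dispersion, unlike these data, so these rates are not the detection rates for the 8 genes.

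Alternatives were a fit with no block, limma-voom (limma 3.58.1), DESeq2 1.42.0, median-of-ratios scaling, other filters, fewer libraries, each library left out, and limma on log2 FPKM plus 1 or 0.1. The text names the 8 genes, Foxp1, each further family gene that was called, at most 4 called genes per direction of the other lists, and the 2 most similar genes of each of the 8. The genes, lists and markers were chosen with earlier results of these data known, and the motifs GGGCGG and TATAAA were added after the data were seen. Amino acid sequences were not used here. Some markers are not reported here.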

Additional observations from a re-analysis of the deposited data

Results flagged for a closer look

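Plxnb2 was singled out because its genotype difference had opposite signs in the 2 subsets: both replicates were lower in Foxp1 cKO rTreg cells and both were higher in Foxp1 cKO aTreg cells. The difference of the log2 fold changes, aTreg minus rTreg, was 1.64 (SE 0.38), with an unadjusted p of 0.0026 and an adjusted p of 0.115 (edgeR, Benjamini-Hochberg), which did not pass. Its counts were 20 and 19 in WT rTreg, 10 and 10 in Foxp1 cKO rTreg, 70 and 90 in WT aTreg and 182 and 161 in Foxp1 cKO aTreg libraries. The rTreg difference alone did not pass (log2 fold change -0.65, adjusted p = 0.244, edgeR). In CPM the rTreg genotypes overlapped, with a log2 difference of -0.21 in replicate 1 and -1.05 in replicate 2.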

How the results depend on the processing

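Over 40 log2 fold changes of the 8 genes (5 comparisons each), 609 of 662 values under the alternatives kept their direction and their side of the threshold. Without the replicate block, 0 of the 8 genes were called between genotypes as higher in rTreg and 0 in aTreg cells, and no called subset difference of these genes was lost. Counts of the 8 genes called moved from 1 to 2 (rTreg genotype, higher) with no filter on low counts and with the libraries of the comparison alone, and to 0 with limma on log2 FPKM plus 1 or plus 0.1. They moved from 2 (aTreg genotype, higher) to 1 with DESeq2, and to 0 with the libraries of the comparison alone and with either log2 FPKM. In WT subsets (3 higher) they moved to 1 with log2 FPKM plus 1 and to 5 with the adjusted p alone. The log2 FPKM fits kept genes with a mean of at least 1 FPKM. Plxnb2, at a mean of 0.816, was left out of them and could not be called there, so its loss from these counts was fixed by that filter. For the difference of genotype effects (0 and 0) they moved to 1 higher with DESeq2 and to 2 higher and 1 lower with no filter. Leaving out 1 library gave 0 to 2 (rTreg, higher), 0 to 1 (rTreg, lower), 0 to 2 (aTreg, higher), 0 to 1 (aTreg, lower), and 0 to 1 for the difference in each direction.

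Directions that turned, all among these 8 genes, belonged to differences that were not called. Of the values for further named genes and lists and for the group order of the 8 genes, 1042 were as reported, on the same side of the threshold or in the same order. Of the rest, 86 of called genes no longer passed and 18 moved. Those that moved were counts that changed by more than 1.5 times, and the group orders of Sema4d and Plxnd1, which differed between CPM and FPKM. Leaving out 1 library gave log2 fold changes of -1.15 to 0.36 for Sema4a, -0.20 to 0.32 for Plxnd1 and -0.27 to 0.10 for Plxnc1 between genotypes in aTreg cells, -0.032 to 0.34 for the difference of effects of Plxnc1, and -0.11 to 0.089 for Sema4d between subsets of Foxp1 cKO cells. The last was 0.029 with no filter and 0.035 with log2 FPKM plus 1 or plus 0.1. Causes were not tested.

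Over all genes, the calls without the block were 159 higher and 107 lower (rTreg genotype, against 421 and 393 with it), 43 and 34 (aTreg genotype, against 344 and 242), and 0 for the difference of effects (against 27 and 21). A group left with 1 library was assumed to vary like the others. Plxnb2 had 10 to 20 counts per rTreg library, and Sema7a 19 and 30 counts in the WT aTreg libraries.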
